A study of Mus musculus with 6 samples.

Results

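The interleukin 6 and oncostatin M family was examined as 10 genes in whole dorsal skin of mice: the cytokine genes Il6, Osm, Lif, Il11 and Clcf1, and the receptor chain genes Il6ra, Il6st, Osmr, Lifr and Il11ra1. They were found by symbol in a table of 55487 genes, each symbol matched 1 row, and all 10 had enough counts to be among the 18259 genes tested. Il6 passed the filter on low counts only through the DPCP libraries, so its place among the tested genes already rested on a difference. The 3 control libraries and the 3 DPCP libraries came from dorsal skin on day 2. DPCP (diphenylcyclopropenone) is a hapten that, painted on skin, elicits contact hypersensitivity, and the study's title concerns macrophages and the hair regeneration that follows it. What the control skin received, and the strain, sex and age of the mice, are not given in the sources used here. Nothing in the labels ties each library to an animal of its own, so every p-value here is set against the spread of these samples alone, which may be technical.

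Cytokines of this family share one signalling chain, gp130, encoded by Il6st. Each ligand engages gp130 together with at least one further chain, such as the interleukin 6 receptor, the interleukin 11 receptor, the oncostatin M receptor or the leukaemia inhibitory factor receptor. Janus kinases bound to the receptor tails phosphorylate STAT3, which enters the nucleus and switches on target genes that include its own inhibitor, Socs3. In skin, oncostatin M and interleukin 6 act on keratinocytes and fibroblasts during inflammation and wound healing, and STAT3 takes part in the growth phase of the hair follicle.

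Libraries held 28346992 to 38846787 counts, and 3 counts, the limit that a count of 0 allows, were 0.0772 to 0.106 CPM (read counts relative to library size), which covers counting error only. The skin markers Krt14 (4776 ± 396 CPM in control, 17426 ± 1233 CPM in DPCP, SD, n = 3) and Col1a1 (477 ± 168 and 552 ± 9.8 CPM) were abundant in both groups, so defining genes of keratinocytes and fibroblasts were present as the tissue label requires. The rise of Krt14 was not shared by the keratinocyte markers given further below, of which Krt1 and Krt10 were called lower. CPM values below are scaled by TMM factors, and a gene is called at a Benjamini-Hochberg adjusted p under 0.05 over all tested genes by edgeR's quasi-likelihood test. By that rule 46.1% of the tested genes were called, 22.8% higher and 23.3% lower in DPCP skin, and their log2 fold changes had a median of −0.01.

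Promoter sequences of 4 members are shown because they belong to the genes on which the results turn: Il6 and Lif, cytokine genes that rose, and the neighbouring receptor genes Osmr, which rose, and Lifr, which fell. Each is the RefSeq window of 300 bases on GRCm38.p6, from 250 bases before to 50 bases after the start site, written 5′ to 3′ on the strand of the gene. Capitals mark matches on either strand to 5 motifs, chosen after the sequences had been seen: STAT (TTCNNNGAA), AP-1 (TGANTCA), NF-kB (GGGA, any 4 bases, then CC), C/EBP (TTGCNNAA) and the cyclic AMP response element, CRE (TGACGT).
Il6, chr5:30012864-30013163, plus strand: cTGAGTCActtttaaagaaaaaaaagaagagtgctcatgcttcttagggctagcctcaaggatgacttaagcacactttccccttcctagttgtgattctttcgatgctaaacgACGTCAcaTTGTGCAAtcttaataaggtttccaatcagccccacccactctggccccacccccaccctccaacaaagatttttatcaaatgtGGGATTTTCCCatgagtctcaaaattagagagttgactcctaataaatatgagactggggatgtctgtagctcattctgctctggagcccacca
Lif, chr11:4257318-4257617, plus strand: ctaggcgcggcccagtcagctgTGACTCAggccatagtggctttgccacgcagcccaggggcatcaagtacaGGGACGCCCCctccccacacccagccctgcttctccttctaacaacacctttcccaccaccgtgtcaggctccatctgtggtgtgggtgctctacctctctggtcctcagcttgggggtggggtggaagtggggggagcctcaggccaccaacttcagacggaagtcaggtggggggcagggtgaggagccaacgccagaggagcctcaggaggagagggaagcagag
Osmr, chr15:6874264-6874563, minus strand: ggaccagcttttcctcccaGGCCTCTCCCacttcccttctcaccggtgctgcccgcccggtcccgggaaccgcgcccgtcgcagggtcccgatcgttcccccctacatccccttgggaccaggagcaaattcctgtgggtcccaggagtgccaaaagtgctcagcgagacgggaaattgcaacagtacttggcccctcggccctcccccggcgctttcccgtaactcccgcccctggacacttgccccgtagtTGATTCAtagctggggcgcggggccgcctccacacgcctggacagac
Lifr, chr15:7129322-7129621, plus strand: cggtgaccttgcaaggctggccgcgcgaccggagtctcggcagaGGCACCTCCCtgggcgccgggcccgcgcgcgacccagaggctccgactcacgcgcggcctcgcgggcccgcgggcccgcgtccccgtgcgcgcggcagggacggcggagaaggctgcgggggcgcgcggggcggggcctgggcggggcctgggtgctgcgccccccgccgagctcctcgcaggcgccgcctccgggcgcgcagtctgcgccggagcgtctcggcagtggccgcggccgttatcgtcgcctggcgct

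The Il6 window held 5 matches: the AP-1 motif at bases 2 to 8, the CRE motif at 115 to 120, the C/EBP motif at 123 to 130, and the NF-kB motif on both strands at 207 to 216 and 208 to 217, which overlap. In the Lif window the AP-1 motif lay at bases 23 to 29 and the NF-kB motif at 73 to 82. The Osmr window had the NF-kB motif at bases 20 to 29 and the AP-1 motif at 254 to 260, and the Lifr window had only the NF-kB motif, at 45 to 54. These 4 genes were picked by their results, so their motifs do not stand for the family. Among the windows not printed, Il11, which was not called, held the AP-1 motif at bases 153 to 159. Il6ra, which fell, and Il11ra1, which rose, held the NF-kB motif (27 to 36 and 261 to 270) and no AP-1 motif. Il6st held none of the 5 motifs. Among the 32851 windows of this length in the table, 7.81% held the AP-1 motif, 20.7% the NF-kB motif, 10.8% the C/EBP motif, 7.51% the CRE motif and 8.30% the STAT motif. None of the 11 windows of members held the STAT motif, which says only that those letters are not in these windows. Osm and Clcf1 had no entry among the 8 members matched in that table. Base composition differed between the 2 receptor genes: 66.0% of the Osmr window and 81.3% of the Lifr window was G or C, with 22 and 53 CG pairs, against a median of 52.7% and 7 pairs over all windows. A second Lifr start in the table, at chr15:7140292-7140591, had 53.3% G or C, 4 CG pairs and the NF-kB motif at bases 160 to 169. A match is a description of the letters, and binding was not measured.

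Most of the cytokine genes were higher in DPCP skin. Of the 5, Il6, Osm, Lif and Clcf1 rose and Il11 was not called, beside 22.8% of all tested genes called higher. The median log2 fold change of the 5 was 2.56, against −0.01 over all tested genes. Without Il6, which needed the DPCP libraries to pass the filter on low counts, 3 of 4 rose and the median was 1.93. The sum of the 5 went from 9.06 to 10.6 CPM in control libraries to 48.5 to 91.1 CPM in DPCP libraries. Il6 and Osm had the largest log2 fold changes of the 10 members. A log2 fold change at least as large as that of Il6 was found in 49 tested genes (0.268%), but Il6 was tested only because of its DPCP counts. For Osm, which did not need the DPCP libraries to be tested, the number was 120 (0.657%).

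Il6 encodes interleukin 6, the founding cytokine of the family and an inducer of the acute-phase response (ENSMUSG00000025746, chromosome 5, 30013114 to 30019981, plus strand). It had 4, 1 and 7 counts in the control libraries and 229, 840 and 307 in the DPCP libraries. These were 0.136, 0.0333 and 0.209 CPM in control replicates 1 to 3 and 6.61, 23.0 and 9.89 CPM in DPCP replicates 1 to 3. Every DPCP library lay above every control library, with DPCP replicate 2 highest. The log2 fold change was 6.63 ± 0.66 (SE, 95% interval 5.12 to 8.15, edgeR adjusted p = 0.000131). It was 5.96 without DPCP replicate 2 and 7.22 without control replicate 3.

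Osm encodes oncostatin M, which is made by neutrophils, macrophages and T cells (ENSMUSG00000058755, chromosome 11, 4236420 to 4241026, plus strand). Its level was 0.851, 0.400 and 0.448 CPM in the control libraries and 5.66, 23.2 and 10.5 CPM in the DPCP libraries. DPCP replicate 2 was again the highest library and replicate 1 the lowest of its group, still above all controls. DPCP skin exceeded control by 4.54 ± 0.58 on the log2 scale (SE, 95% interval 3.22 to 5.85, edgeR adjusted p = 0.000436), and by 3.83 without DPCP replicate 2.

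Lif, the gene of leukaemia inhibitory factor, begins 16530 bases beyond the end of Osm on the same strand (ENSMUSG00000034394, chromosome 11, 4257557 to 4272514). It was at 2.76, 2.999 and 3.10 CPM in control and 5.74, 9.03 and 7.15 CPM in DPCP libraries, without overlap. Its log2 fold change was 1.31 ± 0.20 (SE, edgeR adjusted p = 0.00101). The Osm to Lif ratio, per kilobase of exon, was 0.599, 0.264 and 0.284 in control and 1.89, 4.92 and 2.80 in DPCP libraries. Lif thus had the higher level per length in all 3 control libraries and Osm in all 3 DPCP libraries. The shift of 3.06 on the log2 scale gave p = 0.1 in a two-sided exact permutation test over samples, the smallest p that 3 against 3 allows.

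Clcf1 encodes cardiotrophin-like cytokine factor 1, which signals through the receptor for ciliary neurotrophic factor (ENSMUSG00000040663, chromosome 19, 4214238 to 4223490, plus strand). Its values were 6.20, 5.17 and 5.97 CPM in control and 30.02, 34.3 and 37.8 CPM in DPCP libraries. The DPCP libraries were close to each other here, and replicate 3, not replicate 2, was the highest. The log2 fold change was 2.56 ± 0.13 (SE), with the smallest adjusted p of the 10 members (edgeR adjusted p = 6.32e-06). Another annotated gene, AC109138.7, shares 311 of its exon bases (8.17%), where reads were not counted, so its level is uncertain to that extent.

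Il11, the gene of interleukin 11, stayed near 1 CPM, with 14 to 29 counts in the control and 16 to 61 in the DPCP libraries (ENSMUSG00000004371, chromosome 7, 4772373 to 4782859, minus strand). The control libraries were at 0.579, 0.467 and 0.865 CPM and the DPCP libraries at 0.462, 1.67 and 1.10 CPM, so the groups overlapped. DPCP replicate 1 lay below all controls and DPCP replicate 2 above them. Its log2 fold change of 0.75 ± 0.48 had a 95% interval of −0.35 to 1.84 (edgeR adjusted p = 0.234), which includes 0 and also values above the change of Lif. Without DPCP replicate 1 it was called higher (1.12, adjusted p = 0.0467).

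**Figure D1:**
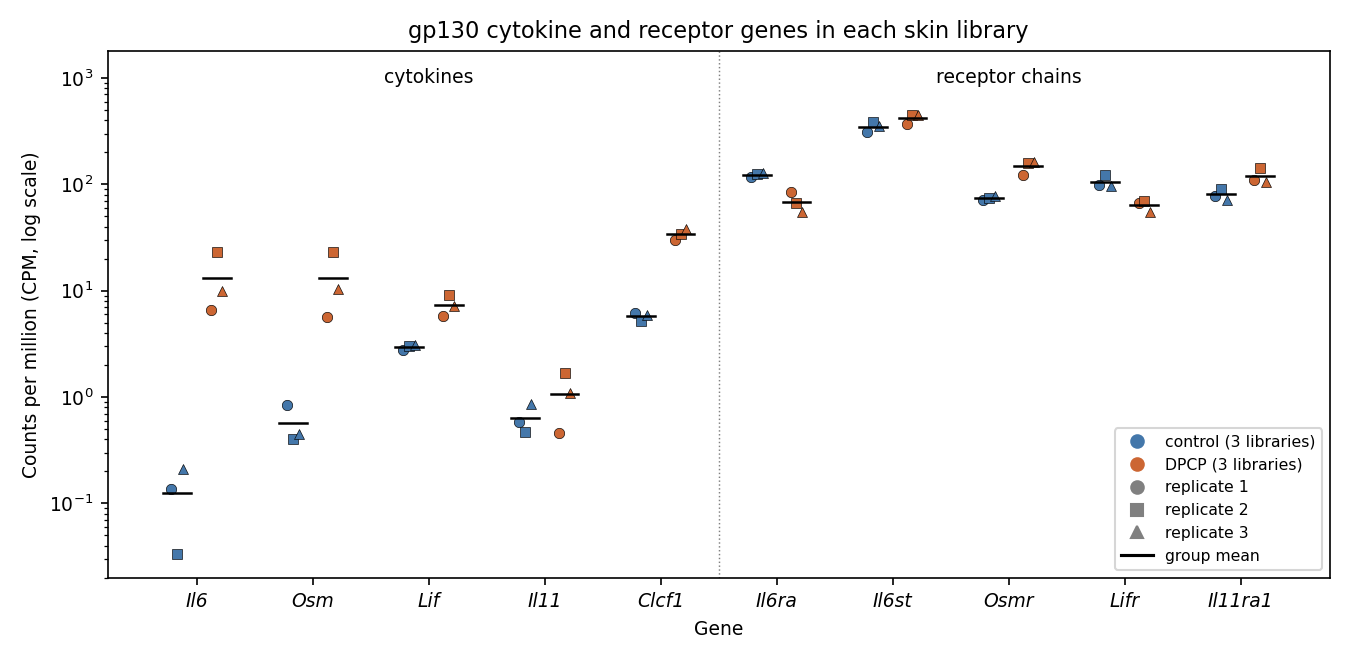
Level of each family gene in each library, in CPM on a log axis; symbols are libraries, shapes are replicate numbers and black bars are group means. The group means of Il6 and Osm lie farthest apart, Osm, Il11 and Il6 spread most among DPCP libraries, and the groups of Il11 and Il6st overlap.

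The receptor chains moved in both directions. Osmr and Il11ra1 rose, Il6ra and Lifr fell, and Il6st was not called, beside 22.8% of tested genes called higher and 23.3% lower. Of all 10 members, 8 had groups that did not overlap in CPM, against 58.0% of tested genes. The summed level of the 5 receptor genes per kilobase was 79.4 ± 6.7 in control and 90.7 ± 7.79 CPM per kilobase in DPCP libraries (SD, n = 3). In whole skin, fewer cells of a type and less RNA per cell cannot be told apart.

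Il6st, the gene of the shared chain gp130, had the highest level of the 10 genes per length in every library (ENSMUSG00000021756, chromosome 13, 112464070 to 112510086, plus strand). It was at 309, 382 and 351 CPM in control and 371, 449 and 448 CPM in DPCP libraries. DPCP replicate 1 fell within the control range and the other DPCP libraries lay above it. The log2 fold change was 0.28 ± 0.12 (SE, 95% interval 0.02 to 0.55, unadjusted p = 0.0401, edgeR adjusted p = 0.078). Without DPCP replicate 1 it was called higher (0.37, adjusted p = 0.0305).

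Osmr, a signalling chain for oncostatin M and, with Il31ra, part of the interleukin 31 receptor, was at 70.4, 74.6 and 77.3 CPM in control and 123, 158 and 161 CPM in DPCP libraries (ENSMUSG00000022146, chromosome 15, 6813577 to 6874969, minus strand). The control libraries were tightly grouped and all DPCP libraries were higher. The log2 fold change was 0.99 ± 0.11 (SE, edgeR adjusted p = 0.000271), a 1.98-fold ratio of means.

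Lifr encodes the chain that pairs with gp130 to bind leukaemia inhibitory factor and also serves Clcf1, cardiotrophin 1 and ciliary neurotrophic factor, and it begins 215644 bases from Osmr on the other strand (ENSMUSG00000054263, chromosome 15, 7090614 to 7197489). Its level was 98.05, 122 and 96.1 CPM in control and 67.3, 70.1 and 55.4 CPM in DPCP libraries, without overlap. It fell by 0.71 ± 0.13 on the log2 scale (SE, edgeR adjusted p = 0.00221). Per kilobase of exon the Osmr to Lifr ratio was 0.639, 0.544 and 0.715 in control and 1.62, 2.00 and 2.59 in DPCP libraries. Lifr was the higher of the pair in all 3 control libraries and Osmr in all 3 DPCP libraries. The log2 ratio differed by 1.69 between groups, a 3.23-fold shift that does not depend on how libraries are scaled (two-sided exact permutation p = 0.1, the smallest that 3 against 3 allows).

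Il6ra encodes the chain that binds interleukin 6, in membrane-bound or shed form (ENSMUSG00000027947, chromosome 3, 89864059 to 89913196, minus strand). It was at 116, 125 and 128 CPM in control and 83.9, 67.0 and 54.6 CPM in DPCP libraries. All DPCP libraries were below all controls, and it fell by 0.85 ± 0.14 on the log2 scale (SE, edgeR adjusted p = 0.00184). The gene Gm42809 shares 242 of its exon bases (2.8%). Il6 thus rose while Il6ra fell, Lif and Clcf1 rose while Lifr fell, and Osm and Osmr both rose.

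Il11ra1, the gene of the interleukin 11 receptor, was at 78.1, 91.2 and 71.7 CPM in control and 109, 141 and 106 CPM in DPCP libraries (ENSMUSG00000073889, chromosome 4, 41699989 to 41769474, plus strand). The groups did not overlap, and the log2 fold change was 0.56 ± 0.13 (SE, edgeR adjusted p = 0.00927). Its level is uncertain because 21.4% of the 150-base windows of its transcripts in GENCODE M21 occur unchanged in Il11ra2 or Gm13305, and reads with several alignments were not counted. Il11ra2 itself was at 2.55, 0.400 and 0.418 CPM in control and 0.404, 0.438 and 1.45 CPM in DPCP libraries, with 1 high library in each group, and was not called (edgeR adjusted p = 0.59).

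**Figure D2:**
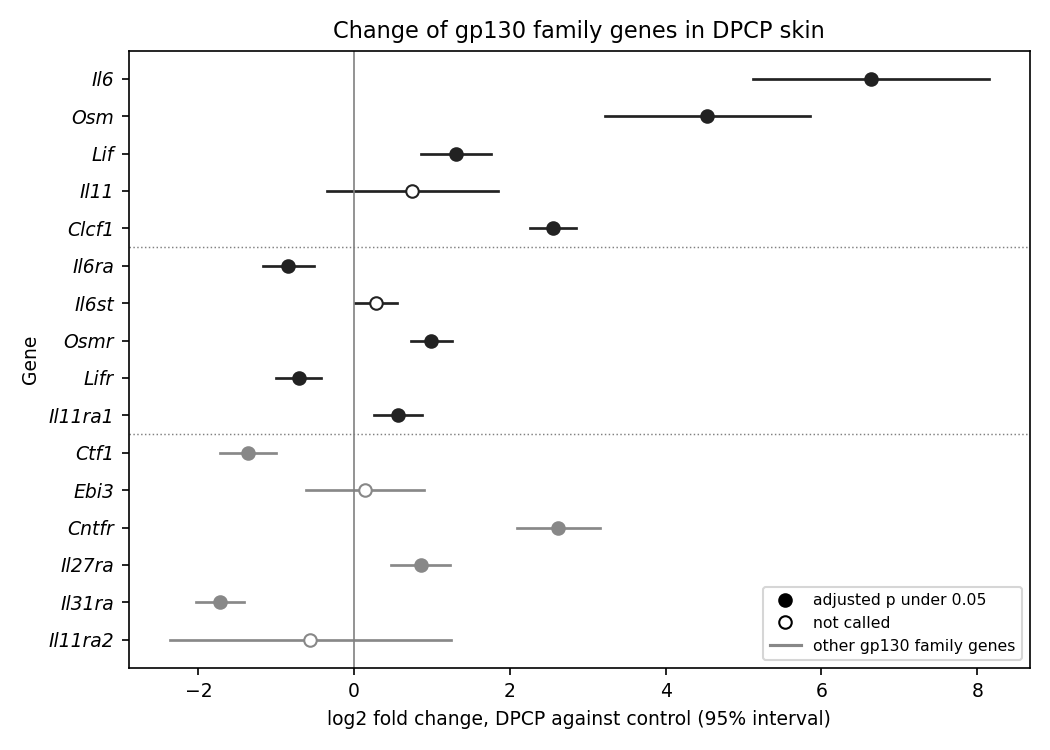
Log2 fold change of DPCP against control for the 10 members (black) and 6 further tested genes of the gp130 family (grey), with 95% intervals; filled points passed an adjusted p of 0.05. Intervals of Il6 and Osm are the widest among the called genes, and Il11, Il6st, Ebi3 and Il11ra2 were not called.

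Levels can be compared between genes only per length. In control skin the order by mean CPM per kilobase of exon was Il6st (31.3), Il11ra1 (18.0), Il6ra (14.2), Lifr (9.78), Osmr (6.12), Clcf1 (1.52), Lif (0.679), Il11 (0.306), Osm (0.249) and Il6 (0.052). Of the neighbours in this order only Il11 and Osm had overlapping libraries. In DPCP skin it was Il6st (38.1), Il11ra1 (26.6), Osmr (12.1), Clcf1 (8.94), Il6ra (7.92), Lifr (5.96), Osm (5.77), Il6 (5.42), Lif (1.68) and Il11 (0.517). There Clcf1 overlapped Il6ra, Il6ra overlapped Lifr, Lifr overlapped Osm, and Osm overlapped Il6, so the full order of these 5 genes is not settled by 3 libraries. Within each DPCP library, though, Il6ra lay above Lifr (9.70 and 6.24, 7.75 and 6.50, 6.32 and 5.14), as did Clcf1. Osmr moved from the lowest of the receptor genes to the third, and Il6 from the lowest of the cytokine genes to near Osm.

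Within the receptor genes, Il6st took 39.4 ± 1.47% of the summed CPM per kilobase in control and 42.01 ± 3.02% in DPCP libraries (SD, n = 3). Osmr went from 7.73 ± 0.572% to 13.4 ± 1.46%, Lifr from 12.3 ± 0.783% to 6.59 ± 0.829% and Il6ra from 18.0 ± 1.18% to 8.83 ± 2.39%. Il11ra1 went from 22.6 ± 1.72% to 29.2 ± 2.53%. For each of these last 4 genes the shares of the groups did not overlap, whereas those of Il6st did.

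**Figure D3:**
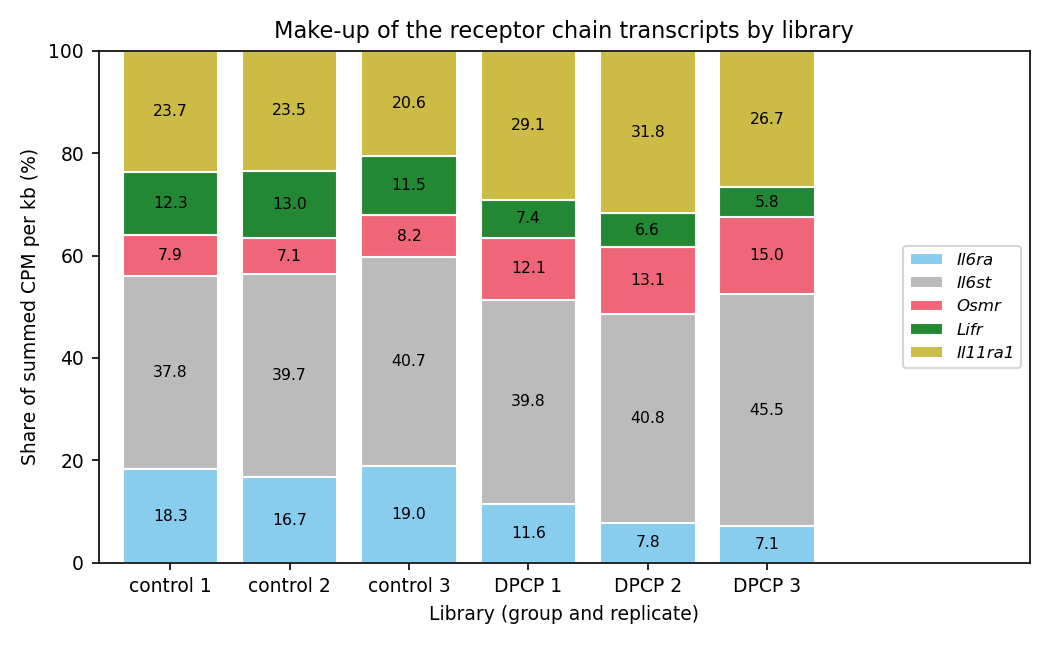
Share of each receptor chain gene in the summed CPM per kilobase of the 5 genes, in percent, 1 bar per library. Osmr takes 12.1% to 15.0% in DPCP libraries against 7.10% to 8.21% in control, while Il6ra and Lifr take less.

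DPCP replicate 2 stood apart in the cytokine genes. Its Il6 level was 2.79 times the mean of the other DPCP libraries, its Osm level 2.88 times, its Il11 level 2.14 times and its Lif level 1.40 times, whereas for Clcf1 the ratio was 1.01. The receptor genes ranged from 0.97 to 1.31 times. The marker sums of neutrophils, monocytes and macrophages, mast cells and basophils (1.25 times) and fibroblasts (1.19 times) were also highest in that library. The T cell and adipocyte sums were highest in DPCP replicate 1, and the keratinocyte, endothelial and skeletal muscle sums in DPCP replicate 3. The summed level of 9 neutrophil marker genes was 41.7 to 51.3 CPM in control libraries, and 528, 1458 and 833 CPM in DPCP replicates 1 to 3, or 2.14 times the other DPCP libraries in replicate 2. In DPCP skin this sum mainly follows S100a8 and S100a9, at 315 and 627 CPM in replicate 2. Of these 9 genes, 8 were tested and all 8 rose, but Trem1 and Clec4d passed the filter on low counts only with the DPCP libraries, which leaves 6 of 6. No gene was at 0 in every library, and Ly6g, at 0 in control replicates 1 and 2, reached 1.29 CPM in DPCP replicate 2. The 10 monocyte and macrophage marker genes summed to 1253 to 2078 CPM in control and to 2882, 4356 and 2557 CPM in DPCP replicates 1 to 3. Of these 10 genes, 6 rose and none fell, beside 22.8% of tested genes called higher and 23.3% lower. The part of these cell types in the Il6 and Osm results was not tested. Without DPCP replicate 2 both genes were still called (edgeR adjusted p = 0.000101 and 0.000412).

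The other marker lists moved in both directions, and their counts stand beside 22.8% of tested genes called higher and 23.3% lower. Summed fibroblast markers were at 4746 to 6735 CPM in control and 6315 to 7682 CPM in DPCP libraries, with 2 of 6 genes higher, or 1 without control replicate 1, control replicate 3 or DPCP replicate 2. Keratinocyte markers summed to 17517 to 22647 CPM and 25426 to 29116 CPM, with 1 of 5 higher and 2 lower, and 2 were called higher by DESeq2, with no count filter or without control replicate 3. The higher sum rested mainly on Krt14 (group means 4776 CPM in control and 17426 CPM in DPCP). Krt10 (5919 and 1020 CPM) and Krt1 (3126 and 1853 CPM) fell, so the sum does not stand for the list as a whole. Markers of T cells were lower in DPCP skin in 4 of 7 cases and higher in 1, with sums of 47.6 to 61.8 CPM in control and 19.6 to 29.8 CPM in DPCP libraries. Of 5 endothelial genes 4 rose, and the sums went from 173 to 202 CPM to 348 to 404 CPM. Of 6 mast cell and basophil genes 5 rose, with sums of 198 to 226 CPM and 286 to 359 CPM, and 4 of 5 without Mcpt8, which passed the filter only through the DPCP libraries. Adipocyte genes were lower in 1 of 4 cases (409 to 538 CPM and 296 to 408 CPM), or 2 without control replicate 1, control replicate 2 or DPCP replicate 1, and skeletal muscle genes in 4 of 5 (7068 to 10194 CPM and 1942 to 4455 CPM), and no gene of these lists was at 0 in every library. Which of these cells held the receptor transcripts that rose or fell was not tested.

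**Figure D4:**
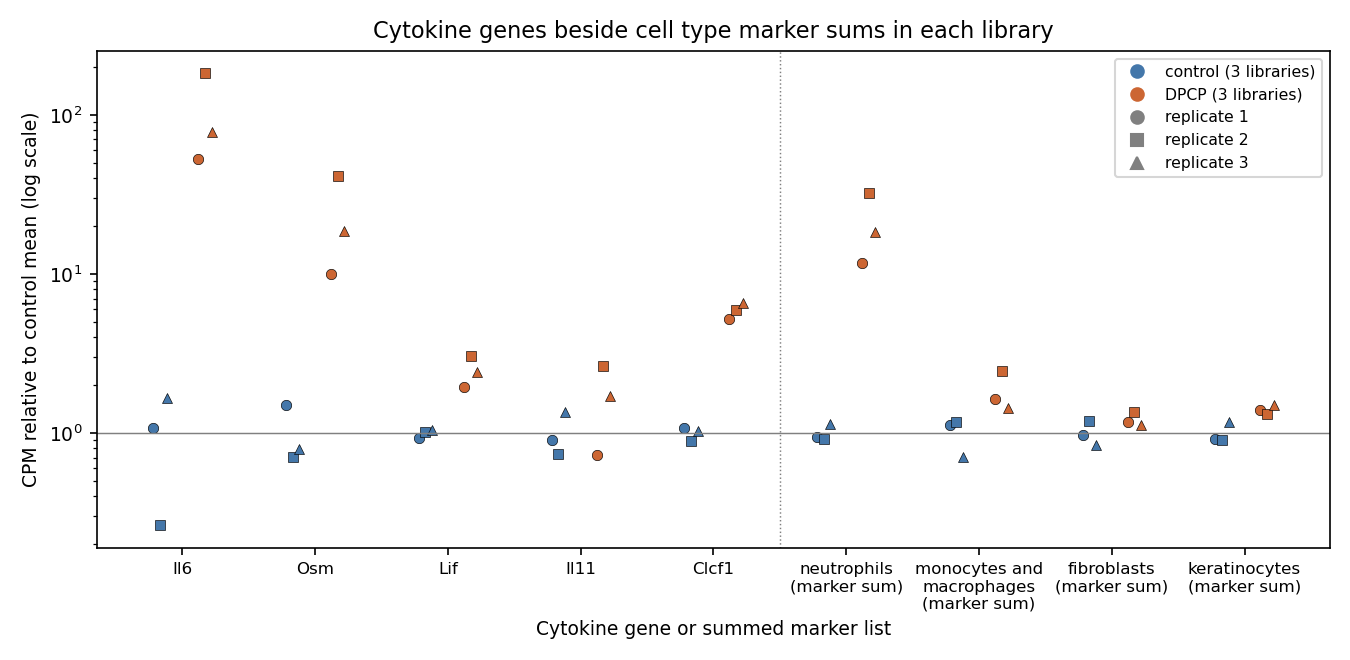
Each cytokine gene and 4 summed marker lists in each library, relative to the mean of the control libraries on a log axis. In DPCP skin Il6, Osm, Lif and Il11 and the neutrophil, macrophage and fibroblast sums are highest in replicate 2 (squares). Clcf1 and the keratinocyte sum are not. The keratinocyte sum rose mainly through Krt14, while Krt1 and Krt10 fell.

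Further genes of the family were described from lists. Of 5 other ligand genes, Cntf, Il27 and Il31 had too few counts to be tested, and Il31, the itch cytokine, had 0 counts in all 6 libraries. Of the 2 tested, 1 fell and none rose, beside 23.3% of tested genes called lower and 22.8% higher. Ctf1, the gene of cardiotrophin 1, fell by 1.37 ± 0.16 in log2 terms (SE, 7.60 ± 0.829 to 2.94 ± 0.189 CPM, edgeR adjusted p = 0.000264), and its exons share 87 bases with Ctf2. Ebi3, a subunit of interleukin 27, was at 1.90 ± 0.911 and 2.08 ± 0.258 CPM (edgeR adjusted p = 0.755), and Gm16712 covers 270 of its exon bases.

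Of the 4 other receptor genes, 2 rose and 1 fell, beside 22.8% of tested genes called higher and 23.3% lower. Their median log2 fold change was 0.15. Cntfr, the receptor through which Clcf1 signals, had 1.66 ± 0.437 CPM in control and 10.2 ± 1.91 CPM in DPCP skin (SD, n = 3), a log2 rise of 2.62 ± 0.23 (SE, edgeR adjusted p = 7.57e-05). Clcf1 and Cntfr thus both rose. Il27ra rose by 0.86 ± 0.17 (2.37 ± 0.117 to 4.29 ± 0.254 CPM, edgeR adjusted p = 0.00341). Il31ra, which joins Osmr in the interleukin 31 receptor, fell by 1.73 ± 0.13 (34.7 ± 2.82 to 10.5 ± 1.7 CPM, edgeR adjusted p = 4e-05), and shares 45 exon bases with Gm3226. The 2 chains of that receptor therefore moved in opposite directions. Among the proteases that shed the interleukin 6 receptor, Adam10 rose by 0.67 ± 0.07 (94.6 ± 0.141 to 150.06 ± 5.33 CPM, edgeR adjusted p = 0.000225), and Adam17 was at 153 ± 8.23 and 155 ± 2.23 CPM (edgeR adjusted p = 0.872).

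Of 12 relay genes (Janus kinases, STAT factors and adaptors), 5 rose, none fell and 7 were not called. Over all tested genes 22.8% were called higher and 23.3% lower. The median log2 fold change of the 12 was 0.19. Stat3, the main transcription factor of the pathway, was at 191 ± 18.6 CPM in control and 345 ± 32.9 CPM in DPCP skin (SD, n = 3), higher by 0.85 ± 0.11 in log2 terms (SE, edgeR adjusted p = 0.000454). The kinase gene Jak2 rose by 0.51 ± 0.12, and the adaptor genes Shc1 and Grb2 by 0.54 ± 0.08 and 0.33 ± 0.09. Grb2 was not called with library totals alone (edgeR adjusted p = 0.0504), without control replicate 3 (0.0711) or without DPCP replicate 2 (0.0683). With library totals alone, or without either of those libraries, 3 genes of the list were called higher. Library totals alone also called 2 lower, and upper-quartile factors called 1 lower.

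Of 8 feedback genes, 3 rose and 1 fell, with a median of 0.12, beside 22.8% of tested genes called higher and 23.3% lower. Socs3, which blocks gp130 itself, was at 25.0, 28.8 and 26.7 CPM in control and 86.3, 156 and 122 CPM in DPCP libraries (log2 fold change 2.18 ± 0.20, SE, edgeR adjusted p = 7.99e-05). The DPCP libraries ranked as they did for Il6 and Osm, an order not particular to these genes, as Lif, Il6st, Hp and the neutrophil marker sum had it too. Socs1 rose by 0.99 ± 0.16 and the phosphatase gene Ptpn2 by 0.42 ± 0.10, and Pias3, an inhibitor of STAT3 DNA binding, fell by 0.62 ± 0.09 (edgeR adjusted p = 0.000999). With library totals alone 2 feedback genes were called lower.

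Targets of STAT3 and acute-phase genes rose in 17 of 23 tested cases, and 1 fell, beside 22.8% of tested genes called higher and 23.3% lower. Their median log2 fold change was 1.53 against −0.01 over all tested genes. Saa1, Saa2 and Saa3 passed the filter on low counts only with the DPCP libraries, and the 20 others gave 14 higher, 1 lower and a median of 1.07. Socs3 and Osmr are members of this list too, and many of its genes also answer to NF-kB or AP-1. The genes with the smallest p were Saa3, Hp, Serpina3n and Saa1. Hp, the haemoglobin-binding protein haptoglobin, rose from 218 ± 27.8 to 2416 ± 492 CPM (SD, n = 3, edgeR adjusted p = 7.48e-06), and the protease inhibitor gene Serpina3n from 119 ± 10.1 to 917 ± 171 CPM (adjusted p = 7.97e-06). Saa3 and Saa1, serum amyloid genes, had log2 fold changes of 11.04 ± 0.39 and 7.18 ± 0.45 (SE), the latter from 2 counts in each control library. Saa2 had no control counts and was at least 227-fold higher in DPCP skin (against 3 counts over the control group). Saa1 and Saa2 are closely similar copies, and reads with several alignments were not counted, so their levels are uncertain. Orm1, an acute-phase glycoprotein gene in liver, fell by 1.84 ± 0.24 (186 ± 34.2 to 51.9 ± 16.7 CPM, edgeR adjusted p = 0.000473).

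**Figure D5:**
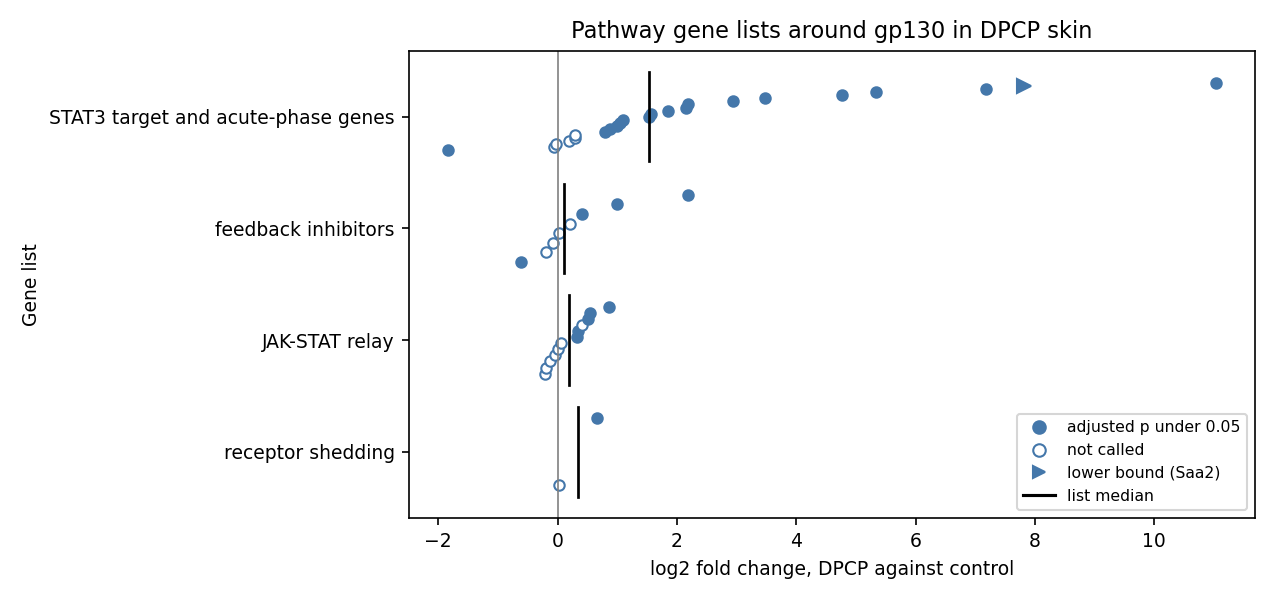
Log2 fold change of DPCP against control for the tested genes of 4 lists around gp130, 1 point per gene, with the list median as a bar; the triangle is the lower bound of Saa2. The medians are 1.53 for target genes, 0.19 for relay genes and 0.12 for feedback genes, and Orm1 is lowest.

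Genes with the most similar pattern to Il6 over the 6 libraries, by Pearson correlation of log2 CPM among genes with a mean of at least 1 CPM, were Gdap2, Uhrf1bp1l, Ptbp3, Gm10052 and Lce3a (r of 0.998 to 0.9996). Their log2 fold changes ran from 0.26 to 3.68, so the likeness was one of shape and not of size. The genes most like Osmr were Bhlhe40, Mcam, Serpina9, Lman1 and Hnrnpa2b1 (r of 0.998 to 0.999), with log2 fold changes of 0.24 to 3.50. Because the 6 libraries fall into 2 groups, high correlations were common: 10.2% of 15507 genes reached r = 0.95 with Il6 and 10.5% with Osmr.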

How the data were processed

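Gene expression was measured by RNA-seq in 6 libraries of whole mouse dorsal skin, 3 control and 3 DPCP, grouped by the sample titles. The authors deposited unnormalized counts of reads for each gene from featureCounts 1.6.2 (per the file headers), which used release 102 of Ensembl's annotation of GRCm38. Its recorded command set no option for strand, pairs or multiple alignments, so mates were counted singly on either strand, and reads with several alignments or over several genes were dropped. The submitters' processing notes also name mm10, HISAT2 2.2.1, Trimmomatic 0.36, DESeq2 1.34.0 and StringTie 2.2.1, without their order. The other deposited column used was the exon length of each gene in bases, per the file headers.

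Of 55487 identifiers, 55141 matched a symbol. Counts were tested with edgeR 4.0.16 in R 4.3.3 (quasi-likelihood F-test, TMM factors 0.942 to 1.04, filterByExpr), which was checked on simulated counts. Standard errors were derived from F and the log2 fold change that edgeR reports. Members are all named. From each other list, up to 4 genes with the smallest p and 1 called the other way are named, and the 5 genes most like Il6 and Osmr. Krt14, Krt1, Krt10, Col1a1, S100a8, S100a9, Ly6g, Trem1, Clec4d, Mcpt8, Saa2 and the untested Cntf, Il27 and Il31 are named outside that rule, after their values were seen. The members and lists were chosen with earlier results of these data known. Library pairs within a group differed by a chi-square of at least 19.9 per gene, so none was a copy. Promoters are RefSeq windows on GRCm38.p6, and transcripts are GENCODE M21, both the build of the counts. As alternatives, DESeq2 1.42.0, other scaling (upper-quartile, RLE, or totals alone), 2 count filters, a replicate block and the omission of each library were run. One gene of the lists is not reported here.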

Additional observations from a re-analysis of the deposited data

How the results depend on the processing

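The 6 higher and 2 lower members kept their direction and their call under every alternative that was run: RLE and upper-quartile factors, library totals, DESeq2, no count filter, a stricter filter (1 CPM or more throughout a group), the replicate block and leaving out each library. Il6st was called higher with the replicate block (log2 fold change 0.28, adjusted p = 0.0293). Leaving out 1 library gave log2 fold changes of 0.22 to 0.37 for Il6st and 0.27 to 1.12 for Il11, and the cause was not tested. Il11 and Il11ra2 did not pass the stricter filter, so they have no value there. The block changed no other member's call. Deviations of equally numbered libraries correlated at 0.0455, 0.0265 and 0.112, and those of other pairs at −0.143 to 0.099. Control replicates 2 and 3 correlated best with the DPCP library of their number, and control replicate 1 with DPCP replicate 2 (0.099). The labels state no pairing, so the numbers were not taken to pair the samples. Genes called higher numbered 3492 to 4035 and genes called lower 3430 to 4039 when 1 library was left out, against 4163 and 4254. Library totals alone called 3517 higher and 4858 lower and shifted the median log2 fold change of all genes to −0.09. The Osmr to Lifr and Osm to Lif shifts kept their direction with 2 counts added in place of 0.5 and without each library. Among the uncalled genes named, Ebi3 changed sign without control replicate 3 (range without 1 library −0.10 to 0.61), Il11ra2 without control replicate 1 (−1.39 to 0.89), and Adam17 without control replicate 2 (−0.014 to 0.058), with upper-quartile factors (−0.012) and with library totals alone (−0.057). The replicate block called all 10 monocyte and macrophage markers higher against 6 without it, and 2 keratinocyte markers higher against 1. The counts for the other gene lists under these settings were added after the data had been seen. Depth limits Il6, Osm and Il11 most, with 12, 52 and 60 counts over the control libraries.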
